A study of Mus musculus with 19 samples.

Results

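The 5S rRNA is the smallest RNA of the large ribosomal subunit. It is transcribed by RNA polymerase III from many gene copies, through a promoter that lies inside the gene, and transcription stops at a run of T. Pieces of rRNA, called rsRNAs (rRNA-derived small RNAs), are abundant in mature sperm, which is largely silent in transcription and translation. Here the reads of mouse sperm small RNA libraries that matched the 5S rRNA gene Rn5s were collected and placed along the molecule. Rn5s is 119 nt long and lies on the minus strand of chromosome 8 at 123598158 to 123598276 (GRCm38, GENCODE M21). A read was taken when it matched the sense strand with at most 1 mismatch. In the 19 libraries 30012419 reads of 49649 distinct sequences met this rule. Rn5s is 1 gene of the 3062 small RNA genes that had an exact read.

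Sperm came from the cauda epididymis of wild type male mice. Males received dicyclohexyl phthalate (DCHP), a plasticizer, or vehicle by oral gavage for 4 weeks, starting at 8 weeks of age. Small RNA of 15 to 50 nt was cut from a gel and sequenced in 2 ways. In traditional RNA-seq (5 control and 5 DCHP libraries) the RNA went straight into an adapter ligation kit, which needs a 5′ phosphate and a 3′ hydroxyl. In PANDORA-seq (4 control and 5 DCHP libraries) it was first treated with a polynucleotide kinase, which repairs other RNA ends, and with AlkB, which removes methyl groups that block reverse transcription. The titles separate control from treated libraries, while the treatment field names DCHP for all 19. The study calls its PANDORA-seq libraries biological replicates. The sources used here say neither this of the traditional libraries nor how many males gave 1 library, so p-values measure the spread between these libraries, which may in part be technical. No sequencing or library batch is named, so method and any batch that went with it cannot be told apart.

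The libraries held 21588335 to 56506344 reads, of which 244364 to 3956795 matched Rn5s. Counting error was therefore small: the 95% Wilson interval of a share of Rn5s reads reached at most 0.198 percentage points to either side. Markers of sperm and of other cells were checked as miRNA hairpins. The summed level of 4 hairpins of male germ cells (Mir34b, Mir34c, Mir449a, Mir449c) was 0.856 to 5.78 reads per 1000000 total reads (RPM) in PANDORA-seq and 78.7 to 403 RPM in traditional RNA-seq. The 5 hairpins of epididymal epithelium summed to 2.32 to 37.9 RPM and to 489 to 3914 RPM. The 2 hairpins of smooth muscle summed to 2.28 to 94.0 RPM and to 1165 to 5789 RPM. The liver hairpin Mir122 lay at 3.15 to 104 RPM and at 634 to 56035 RPM, the highest value being that of traditional control replicate 2. The 2 hairpins of red blood cells summed to at most 0.227 and 72.4 RPM, and the 2 of myeloid cells to at most 0.181 and 64.3 RPM. Every list was thus lower in PANDORA-seq, and the part of other cells in the results was not tested.

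Fragments are described by their first and last base in Rn5s, counted from 1 at its 5′ end. Of 351 annotated 5S genes, 32 had the sequence of Rn5s, Rn5s included, and 46 held bases 84 to 119, the stretch that most PANDORA-seq reads covered. A read therefore belongs to the 5S rRNA and not to 1 genomic copy. The 5′ fragments start at base 1, the 3′ fragments end at base 119, the annotated last base, and all others are internal. The sequences that led the internal and 3′ fragments in each method are shown because the methods differed in them. Capitals mark bases 104 to 118, which the printed fragments that reach base 118 or 119 share.
Rn5s 56 to 82: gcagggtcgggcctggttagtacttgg
Rn5s 84 to 118: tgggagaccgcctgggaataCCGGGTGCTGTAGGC
Rn5s 84 to 119: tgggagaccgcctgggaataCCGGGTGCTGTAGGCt
Rn5s 102 to 119: taCCGGGTGCTGTAGGCt
Rn5s 103 to 118: aCCGGGTGCTGTAGGC
Rn5s 103 to 119: aCCGGGTGCTGTAGGCt
Rn5s 104 to 118: CCGGGTGCTGTAGGC

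PANDORA-seq gave far more 5S rRNA reads than traditional RNA-seq in both exposure groups. In PANDORA-seq control libraries 1 to 4 the Rn5s level was 123128, 89047, 49958 and 70024 RPM. In PANDORA-seq DCHP libraries 1 to 5 it was 57857, 81912, 71728, 97397 and 77528 RPM. Every one of these 9 libraries lay above all 10 traditional ones. Traditional control libraries 1 to 5 held 11687, 9232, 11092, 9511 and 10709 RPM. Traditional DCHP libraries 1 to 5 held 9019, 11319, 8660, 10452 and 15727 RPM. In percent of all reads, Rn5s took up 7.98% ± 2.18 of a PANDORA-seq library (SD, n = 9) and 1.07% ± 0.204 of a traditional library (SD, n = 10).

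The mean level in control sperm was 7.95-fold higher in PANDORA-seq than in traditional RNA-seq (83039 ± 31128 RPM, n = 4, against 10446 ± 1046 RPM, n = 5; two-sided exact permutation test, p = 0.00794, adjusted p = 0.0159 over 4 comparisons). In DCHP sperm it was 7.003-fold higher (77285 ± 14442 against 11036 ± 2835 RPM, n = 5 each; exact p = 0.00794, adjusted p = 0.0159). This p is the smallest that groups of these sizes allow. When DCHP libraries of the same number were paired, the ratio was 7.07, with an exact sign-flip p of 0.0625, the smallest for 5 pairs. The called tests of both exposure groups were unpaired, and 4 control pairs could not have passed a sign-flip test. The scaling set the size of the ratio. The study normalised to miRNA reads, and per miRNA read of 20 to 24 nt the ratio was 849 in control and 676 in DCHP (exact permutation test, adjusted p = 0.0159 each). PANDORA-seq held such reads at 358 to 1092 RPM and traditional RNA-seq at 36259 to 130121 RPM. Counted per read of the other rRNAs in place of all reads, the ratio came down to 1.99 in control (exact permutation test, adjusted p = 0.0317) and 1.68 in DCHP (adjusted p = 0.0476). The other rRNAs themselves, 18S, 5.8S and the mitochondrial rRNAs, took up 13.6% ± 1.15 of PANDORA-seq reads (SD, n = 9) and 3.41% ± 0.322 of traditional reads (SD, n = 10). These were the only rRNAs in that count, so the long rRNA of the large subunit was left out. In PANDORA-seq control, 18S by exact match stood at 131410 RPM, where these rRNAs took up 13.6% of reads. In traditional control it stood at 20857 RPM, where they took up 3.45%. Thus 18S formed a larger part of the count in PANDORA-seq, and ratios per read of the other rRNAs do not stand for rRNA in general.

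DCHP exposure went with no called difference in the Rn5s level. In PANDORA-seq the DCHP mean was 0.931 times the control mean (exact permutation test, p = 0.746, adjusted p = 0.794). PANDORA-seq control replicate 1, the highest library, set the direction of that ratio, which was 1.11 without it. In traditional RNA-seq the DCHP mean was 1.06 times the control mean (exact p = 0.794, adjusted p = 0.794). Here traditional DCHP replicate 5 was the highest library, and the ratio was 0.944 without it. The difference between the methods in the DCHP effect was -0.18 on the log2 scale (exact permutation of exposure within method, p = 0.588). In RNA from whole sperm preparations, a change in sperm that hold 5S fragments and a change in fragments per sperm cannot be told apart.

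The rise in PANDORA-seq was uneven along the molecule, and the 3′ fragments carried most of it. Traditional control libraries 1 to 5 held 5951, 5412, 5969, 5648 and 5358 RPM of 3′ fragments. PANDORA-seq control libraries 1 to 4 held 96539, 74185, 34728 and 53171 RPM. The mean was 11.4-fold higher in PANDORA-seq (64656 ± 26676 against 5668 ± 289 RPM; exact permutation test, adjusted p = 0.0238 over 12 class comparisons), and the groups did not overlap. PANDORA-seq DCHP libraries 1 to 5 held 44344, 61572, 59684, 76692 and 55274 RPM, against 5107, 6920, 4905, 6672 and 7528 RPM in traditional RNA-seq. That was a 9.56-fold difference in DCHP sperm (adjusted p = 0.0238, exact; 9.55-fold with paired libraries, sign-flip p = 0.0625), again with no overlap.

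Internal fragments were also more abundant in PANDORA-seq, by a smaller factor. PANDORA-seq control libraries 1 to 4 held 23126, 13867, 13866 and 14470 RPM of them, and traditional control libraries 1 to 5 held 4623, 3460, 4379, 3204 and 4423 RPM. PANDORA-seq DCHP libraries 1 to 5 held 12315, 15624, 11488, 18508 and 18160 RPM, and traditional DCHP libraries 1 to 5 held 3186, 3355, 3245, 2758 and 5270 RPM. The groups did not overlap, and the ratios were 4.06 in control and 4.27 in DCHP (exact permutation test, adjusted p = 0.0238 each; sign-flip p = 0.0625 for the paired DCHP libraries). Per read of the other rRNAs, however, the internal fragments stood at 1.03 and 1.02 times their traditional level (exact permutation test, adjusted p = 0.909 and 0.921).

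The 5′ fragments differed least between the methods. PANDORA-seq control libraries 1 to 4 held 3463, 995, 1364 and 2382 RPM and traditional control libraries 1 to 5 held 1112, 360.2, 744, 659 and 927 RPM. The groups overlapped, with a ratio of 2.70 (exact permutation test, adjusted p = 0.0381, and 0.0571 on a log2 scale). PANDORA-seq DCHP libraries 1 to 5 held 1198, 4717, 557, 2197 and 4094 RPM, and traditional DCHP libraries 1 to 5 held 726, 1045, 511, 1022 and 2930 RPM. These groups overlapped too, and the ratio of 2.05 did not pass the test (adjusted p = 0.429, exact). It was 3.09 without traditional DCHP replicate 5, which held the 2930 RPM, and still did not pass (adjusted p = 0.190, exact). Per miRNA read of 20 to 24 nt the DCHP ratio of 5′ fragments was 197 and passed (adjusted p = 0.0159, exact permutation test). Per read of the other rRNAs the direction turned, to 0.679 in control and 0.451 in DCHP, with neither passing (exact permutation test, adjusted p = 0.619 each), while the 3′ fragments were still 2.83-fold and 2.31-fold higher in PANDORA-seq (adjusted p = 0.0476 each).

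**Figure D1:**
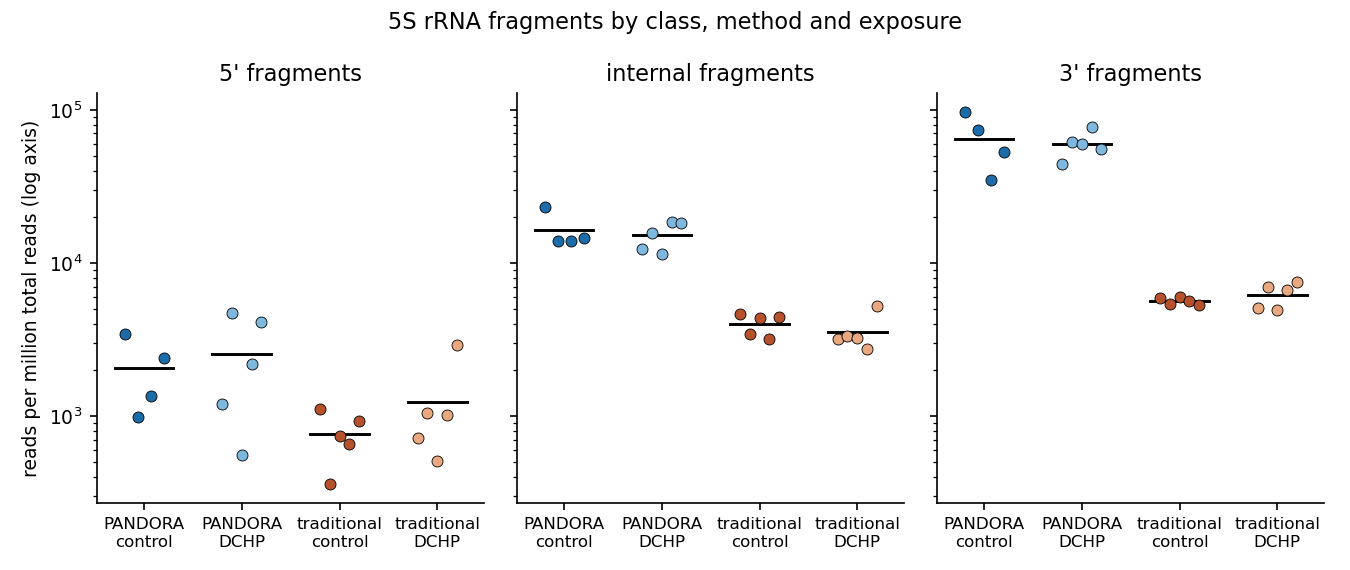
Level of 5′, internal and 3′ fragments of the 5S rRNA in RPM (log axis), 1 point per library and a line at each group mean. The 3′ fragments of the PANDORA-seq libraries (34728 to 96539 RPM) sit above those of all traditional libraries (4905 to 7528 RPM), whereas the points of the 5′ fragments overlap between methods.

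The make-up of the 5S reads differed accordingly. In PANDORA-seq 3′ fragments formed 76.8% ± 5.74 of Rn5s reads in control (SD, n = 4) and 77.0% ± 4.40 in DCHP (SD, n = 5). In traditional RNA-seq they formed 54.6% ± 4.30 and 57.2% ± 6.07 (SD, n = 5 each). Internal fragments formed 20.7% and 19.8% in PANDORA-seq and 38.3% and 32.5% in traditional RNA-seq. The 5′ fragments formed 2.52% and 3.23% against 7.14% and 10.3%. None of these groups overlapped between the methods, and all 6 differences passed the exact permutation test (adjusted p = 0.0190 to 0.0317 over 12 comparisons). The paired DCHP libraries gave a sign-flip p of 0.0625 for each class. Where a fragment was called 5′ or 3′ when it came within 3 bases of the end, the control differences in the internal share (-7.81 points) and in the 3′ share (13.1 points) no longer passed (exact permutation test, adjusted p = 0.0952 and 0.0762). Reads that stop at base 118, 1 base short of the annotated end, were 35.3% of the internal reads in PANDORA-seq against 37.9% in traditional RNA-seq.

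No class level and no class share passed the test for DCHP. The largest change in share was that of the internal fragments in traditional RNA-seq, which lay 5.84 points lower in DCHP than in control on average (exact permutation test, p = 0.0317, adjusted p = 0.0544). Their shares were 39.6, 37.5, 39.5, 33.7 and 41.3% in control libraries 1 to 5 and 35.3, 29.6, 37.5, 26.4 and 33.5% in DCHP libraries 1 to 5. The groups overlapped. Without traditional control replicate 4 the difference was -6.99 points and without traditional DCHP replicate 3 it was -7.09 points, and both of these passed. In PANDORA-seq the same share differed by -0.933 points (adjusted p = 0.823, exact permutation test).

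Along the molecule, mean coverage stayed below 15% up to base 83 in PANDORA-seq and then jumped at a single base. Base 83 was covered by 7.45% of Rn5s reads in PANDORA-seq control and 12.2% in PANDORA-seq DCHP, and base 84 by 72.6% and 71.8%. In traditional RNA-seq the step between these bases was small, from 17.9% to 26.3% in control and from 20.1% to 31.3% in DCHP. Coverage there rose later and in smaller steps, to 70.1% and 70.2% at base 104. Base 38 was covered by 8.63% and 8.74% of reads in PANDORA-seq and by 13.5% and 15.3% in traditional RNA-seq.

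**Figure D2:**
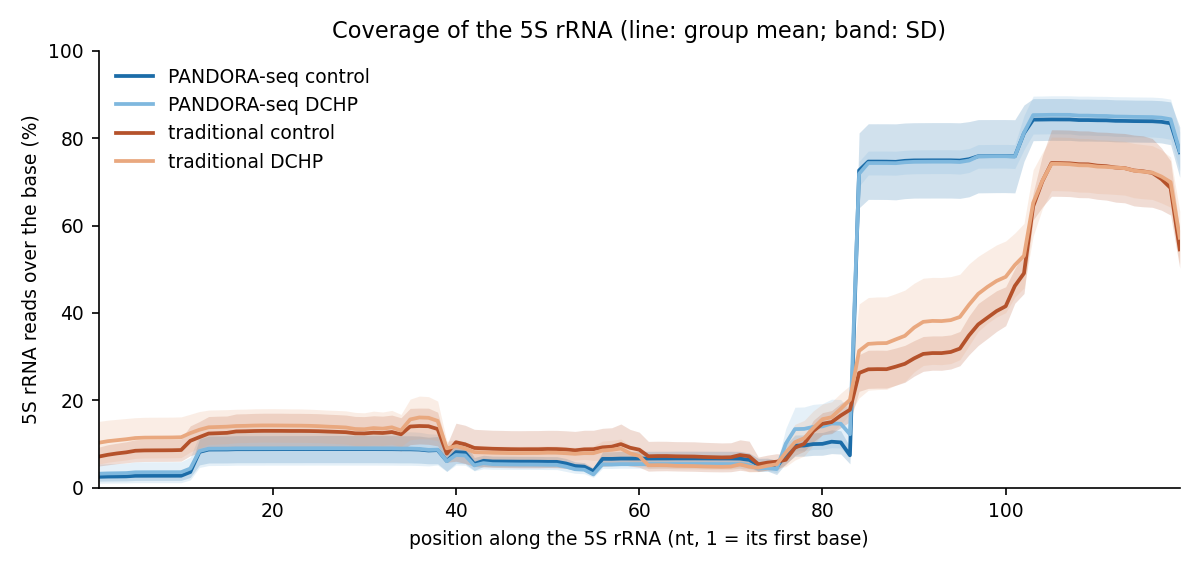
Percent of Rn5s reads over each base of the 5S rRNA, from base 1 to base 119, with the group mean as a line and the SD as a band. Both PANDORA-seq groups step up from under 13% at base 83 to about 72% at base 84, and both traditional groups climb in several steps.

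Base 84 was the start of most PANDORA-seq reads. The share of Rn5s reads that start there was 69.1, 76.9, 54.0 and 60.9% in control libraries 1 to 4 and 56.8, 58.7, 70.9, 62.4 and 49.3% in DCHP libraries 1 to 5. In traditional RNA-seq it was 7.90, 7.07, 6.92, 10.2 and 10.8% in control libraries 1 to 5 and 7.06, 6.72, 8.48, 27.5 and 6.77% in DCHP libraries 1 to 5. Traditional DCHP replicate 4 thus stood apart from the other 9 traditional libraries, and still lay below every PANDORA-seq library. Expressed as levels, reads starting at base 84 were 62.4-fold higher in PANDORA-seq in control (55785 against 894 RPM) and 38.1-fold higher in DCHP (46175 against 1214 RPM). Without traditional DCHP replicate 4 the DCHP ratio was 57.8 (46175 against 799 RPM). All other Rn5s reads together were 2.85-fold (27255 against 9552 RPM) and 3.17-fold (31110 against 9822 RPM) higher. None of these groups overlapped.

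Bases 1, 76, 102, 103 and 104 were the other starts that held at least 5% of reads in a method. Base 76 began 5.05% ± 2.54 of PANDORA-seq reads (SD, n = 9) and 2.32% ± 2.10 of traditional reads (SD, n = 10). Base 102 began 5.41% ± 1.92 and 2.88% ± 1.15, whereas base 103, the next base, began 3.60% ± 1.398 and 13.7% ± 4.10. Base 103 was the leading start in 8 of 10 traditional libraries. The exceptions were traditional DCHP replicate 4, led by base 84 (27.5%), and traditional DCHP replicate 5, led by base 1 (18.6%). Base 84 led in 9 of 9 PANDORA-seq libraries. Base 104 began 0.0234% ± 0.0101 of PANDORA-seq reads and 5.39% ± 2.26 of traditional reads, with no overlap between the methods (0.0102 to 0.0378% against 2.56 to 10.5%). Base 1 began 2.91% ± 1.69 and 8.73% ± 3.93. Since reads had at least 15 nt, a start after base 105 could not be seen.

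Starts were concentrated in PANDORA-seq and spread out in traditional RNA-seq. The most used start positions that together held 80% of reads numbered 2 to 7 in a PANDORA-seq library (median 5) and 18 to 24 in a traditional one (median 21.5). For read ends the numbers were 1 to 3 and 3 to 8. This measure was chosen after the profiles had been seen and is given without a test.

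The annotated last base was the main read end in both methods. Base 119 ended 76.9% ± 4.70 of PANDORA-seq reads (SD, n = 9) and 55.9% ± 5.15 of traditional reads (SD, n = 10). Base 118 ended 7.002% ± 1.03 and 13.4% ± 2.82. Within the molecule only base 38 reached 5% in a method, ending 2.77% ± 1.03 of PANDORA-seq reads and 6.25% ± 2.79 of traditional reads. The pair of ends 84 and 119 alone accounted for 58.9% ± 8.34 of PANDORA-seq reads and 9.16% ± 6.06 of traditional reads. Bases 103 and 119 accounted for 2.33% and 9.81%, and bases 105 and 119 for 0.0395% and 4.06%.

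**Figure D3:**
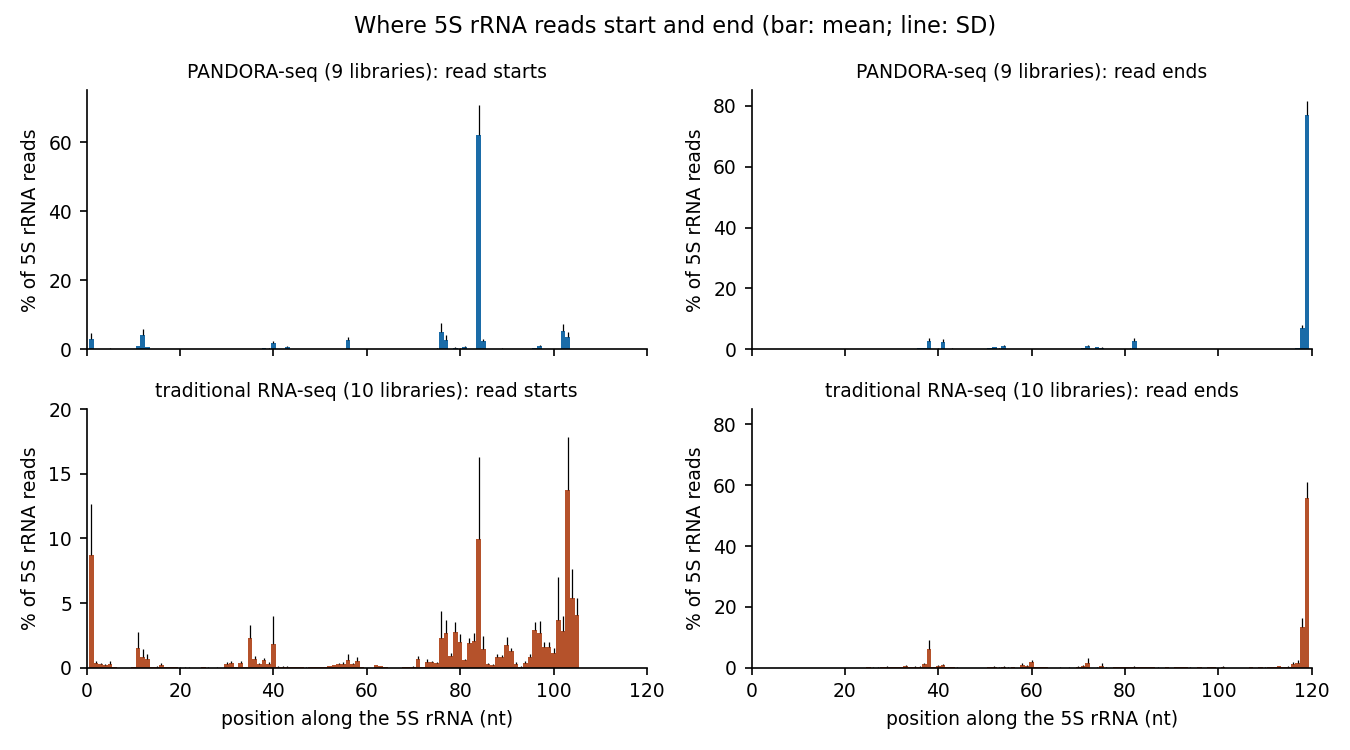
Percent of Rn5s reads that start (left) or end (right) at each base of the 5S rRNA, as the mean over libraries with the SD as a line, for PANDORA-seq (top) and traditional RNA-seq (bottom). The scale of the starts differs between the rows: the PANDORA-seq peak at base 84 holds 62.1% of reads, and the highest traditional start, base 103, holds 13.7%.

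Some breaks could be seen from both sides in PANDORA-seq, with 1 base missing between the pieces. Ends at base 82 made up 2.79% of PANDORA-seq reads, while ends at base 83, which would directly adjoin the start at base 84, made up 0.0383%. Ends at base 54 made up 1.08%, while ends at base 55, next to the start at base 56, made up 0.0156%. In both places the base left out was an A, and the order was the same in 9 of 9 libraries. Other bases stood in this place elsewhere. Before the start at base 77 it was a T, with 0.459% of reads ending at base 75 and 0.0464% at base 76 (9 of 9 libraries). Ends at base 75 directly adjoin the start at base 76, however. A gap before base 77 can therefore not be told from a break without a gap before base 76. Before the start at base 76 the base in this place was a G, with the same order in 6 of 9 libraries. Reads that ended at base 82 or base 83 made up 0.385% and 0.142% in traditional RNA-seq, in the same order in 10 of 10 libraries. Before bases 96, 101, 103 and 104 the traditional libraries had this order too, in 9, 9, 10 and 8 of 10, whereas it held in 2 of 10 libraries before base 102, in 1 of 10 before base 79 and in 0 of 10 before base 105. The neighbouring starts from base 101 to base 105 share ends in the way that bases 76 and 77 do. The gaps were read off after the profiles had been seen, and no cause was tested.

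The bases at the read ends differed as well. Among reads that start after base 1, the first base was T in 83.2% (76.4 to 91.0% over libraries) of PANDORA-seq reads and 33.6% (25.3 to 56.1%) of traditional reads. It was C in 0.541% (0.262 to 0.808%) and 17.6% (10.7 to 25.2%). With reads that start at base 84 set aside, T still stood at 53.9% (47.3 to 59.7%) against 25.7% (19.4 to 36.8%), and C at 1.49% (1.17 to 2.03%) against 19.6% (13.6 to 27.2%). The base just upstream of the start was A in 77.8% (66.4 to 88.3%) of PANDORA-seq reads and 30.6% (24.2 to 44.3%) of traditional reads. Base 83 is itself an A, so the start at base 84, with 62.1% of PANDORA-seq reads, makes up most of that PANDORA-seq share. The share of A was not computed with that start set aside, so no preference at other starts is shown. The ranges given here include that start except where it was set aside. None of these ranges overlapped between the methods. The few reads with a C at the start in PANDORA-seq included those at bases 104 and 105, which together began over 9% of traditional reads. The bases were looked at after the profiles had been seen, and these differences were not tested.

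The lengths followed from these ends. The mean length of Rn5s reads was 35.01, 34.7, 33.0 and 34.3 nt in PANDORA-seq control libraries 1 to 4 and 34.4, 35.4, 33.7, 33.7 and 35.2 nt in DCHP libraries 1 to 5. It was 27.0, 24.3, 26.8, 27.0 and 29.6 nt in traditional control libraries 1 to 5 and 27.8, 28.5, 25.6, 32.4 and 28.2 nt in DCHP libraries 1 to 5. The methods did not overlap. PANDORA-seq reads were longer by 7.33 nt in control and by 5.98 nt in DCHP (exact permutation test, adjusted p = 0.0159 over 4 comparisons; sign-flip p = 0.0625 for the paired DCHP libraries). DCHP and control differed by 0.226 nt in PANDORA-seq (adjusted p = 0.675) and by 1.58 nt in traditional RNA-seq (adjusted p = 0.413), and neither passed the exact permutation test. With 1 library left out in turn the difference in traditional RNA-seq ran from 0.606 to 2.29 nt.

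Length differed most for the 3′ fragments. In PANDORA-seq 76.3% of 3′ fragments had 36 nt, the length from base 84 to base 119. In traditional RNA-seq 16.1% did, and 17.7% had 17 nt, the length from base 103. In traditional control 17 nt was the most frequent length (20.3%), whereas in traditional DCHP 36 nt was (17.7%, against 15.1% at 17 nt). That DCHP mean included replicate 4, with 2450 RPM of the fragment from base 84 to base 119, against 502 to 804 RPM in the other traditional DCHP libraries. The most frequent length without it was not computed. Their mean length was 34.8 nt against 27.0 nt. The mean length of the 5′ fragments was 38.8 nt against 36.4 nt. Internal fragments were most often 35 nt long in PANDORA-seq (18.3%) and 16 nt in traditional RNA-seq (12.5%). Files held reads of 15 to 45 nt, so longer and shorter pieces of the 5S rRNA were not seen.

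**Figure D4:**
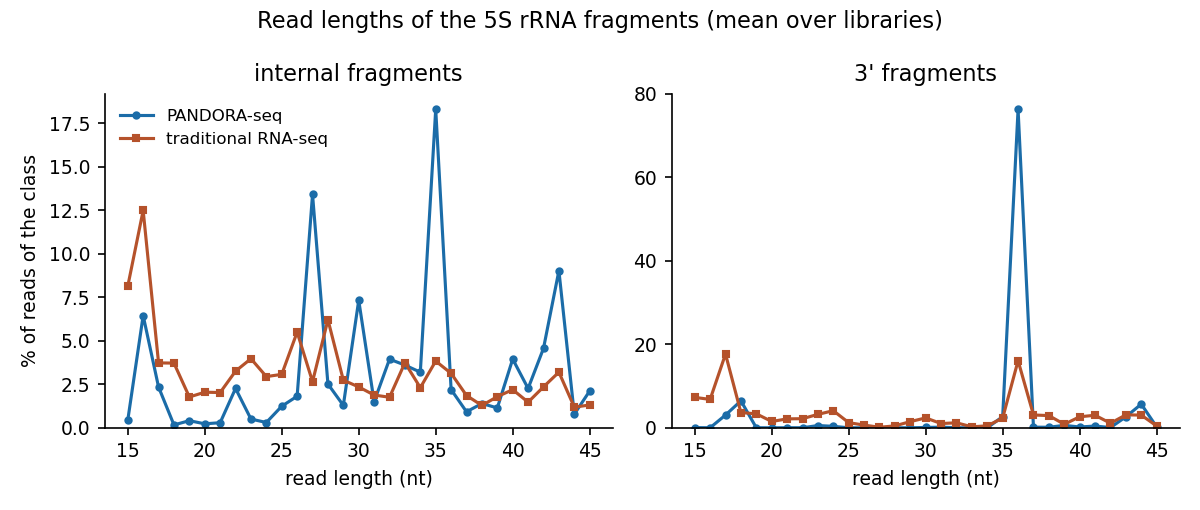
Read length in nt of internal and 3′ fragments of the 5S rRNA, in percent of the reads of the class, as the mean over 9 PANDORA-seq and 10 traditional libraries. The 3′ fragments peak at 36 nt in PANDORA-seq (76.3%) and at both 17 nt (17.7%) and 36 nt (16.1%) in traditional RNA-seq.

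The single fragments described here were named for their high level in one method, which favours a difference in the direction of that method, so their fold changes between methods are descriptions. The 36-nt fragment from base 84 to base 119 was the leading Rn5s sequence of PANDORA-seq. It was present at 74782, 60098, 23533 and 37932 RPM in PANDORA-seq control libraries 1 to 4 and at 28802, 42459, 44747, 53260 and 33281 RPM in DCHP libraries 1 to 5. In traditional RNA-seq it was present at 727, 513, 572, 743 and 971 RPM in control libraries 1 to 5 and at 502, 574, 602, 2450 and 804 RPM in DCHP libraries 1 to 5. The lowest PANDORA-seq library lay above the highest traditional library. The log2 fold change was 6.12 ± 0.49 (SE) in control and 5.36 ± 0.59 in DCHP (edgeR quasi-likelihood fit over 20000 sequences). In DCHP it was 6.03 ± 0.52 without traditional DCHP replicate 4. Its shorter form, which stops at base 118, behaved alike, with 5.46 and 4.96 on the log2 scale. The 18-nt fragment from base 102 to base 119 was higher by 3.99 ± 0.36 and 4.63 ± 0.49, from 215 to 3427 RPM in control and from 154 to 3812 RPM in DCHP.

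Fragments that start at base 103 or 104 differed from those above. The 17-nt fragment from base 103 to base 119 led the 3′ fragments in traditional control, at 1035 RPM against 705 RPM for the 36-nt fragment. In traditional DCHP it stood at 799 RPM against 986 RPM for the 36-nt fragment, whose mean included the 2450 RPM of replicate 4. It reached 1381 and 1912 RPM in PANDORA-seq, and its log2 fold change was 0.42 in control (edgeR, adjusted p = 0.308) and 1.26 in DCHP (adjusted p = 0.00475). Its form that stops at base 118 stood at 780 RPM in PANDORA-seq and 362 RPM in traditional RNA-seq in control, and at 981 and 290.5 RPM in DCHP, a difference of 1.11 ± 0.41 and 1.76 ± 0.41 on the log2 scale (edgeR, adjusted p = 0.0196 and 0.00113). The 15-nt fragment from base 104 to base 118, the common core in capitals above, was named as a leading traditional fragment and ran the other way. It was present at 3.34, 3.48, 5.07 and 4.58 RPM in PANDORA-seq control libraries 1 to 4 and at 146, 339, 121, 112 and 67.9 RPM in traditional control libraries 1 to 5. In DCHP libraries 1 to 5 it was present at 4.23, 4.05, 8.90, 6.46 and 10.3 RPM in PANDORA-seq and at 86.9, 108, 138, 66.6 and 399 RPM in traditional RNA-seq. It was lower in PANDORA-seq, the direction that its naming favours, with log2 fold changes of -5.25 ± 0.59 and -4.55 ± 0.60 (edgeR).

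Among internal fragments, the 27-nt piece from base 56 to base 82 was named as a leading PANDORA-seq fragment and was scarce in traditional RNA-seq. It was present at 1181 to 1863 RPM in control and 815 to 1781 RPM in DCHP, against 8.50 to 26.2 RPM and 5.14 to 13.8 RPM in traditional RNA-seq. The log2 fold changes were 6.28 ± 0.50 and 7.24 ± 0.55 (edgeR). In control this was close to the 6.12 of the 36-nt fragment that begins 2 bases after its end, and in DCHP it was above the 5.36 of that fragment; the difference between the fragments was not tested.

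**Figure D5:**
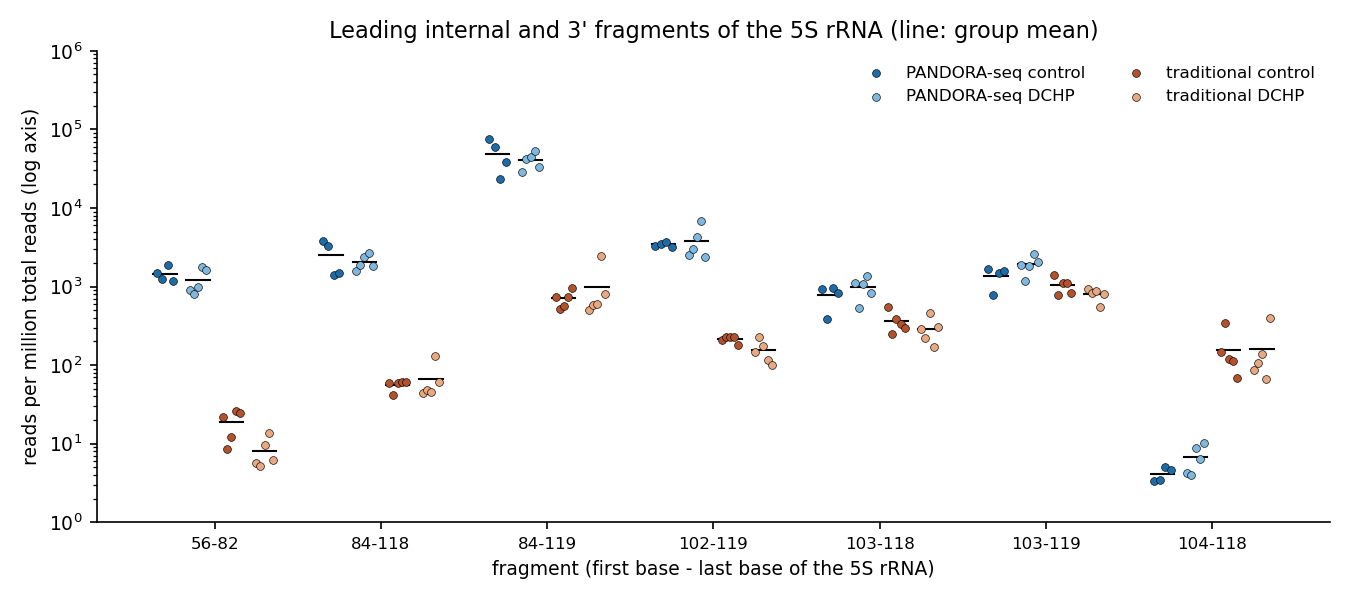
Level of the leading internal and 3′ fragments of the 5S rRNA in RPM (log axis), named by first and last base, with 1 point per library and a line at each group mean. The fragments 56-82, 84-118 and 84-119 are far higher in PANDORA-seq, 104-118 is far lower, and 103-119 lies close together in control, whereas in DCHP its PANDORA-seq libraries (1181 to 2623 RPM) sit above the traditional ones (548 to 928 RPM).

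Over all Rn5s sequences among the 20000 most abundant of any origin, 328 of 522 were higher and 94 lower in PANDORA-seq in control (edgeR, adjusted p below 0.1 and over 2-fold). The background was high: 44.3% of all 20000 sequences were called higher and 43.9% lower, 88.2% in all. In DCHP 376 of 548 were higher and 95 lower, against a background of 47.1% and 42.1%, 89.1% in all. The median log2 fold change of the Rn5s sequences was 2.35 in control and 2.84 in DCHP, and that of all sequences was 0.15 and 0.59. With TMM factors in edgeR 317 were higher and 106 lower in control (background 42.8% and 45.1%), and 359 and 104 in DCHP (44.9% and 43.6%). With DESeq2, which changes both the test and the scaling, 282 were higher and 142 lower in control (background 38.5% and 46.4%), and 348 and 102 in DCHP (43.1% and 44.4%). With library sizes taken from miRNA reads 507 were higher and 0 lower in control (edgeR; background 77.0% and 4.04%), and 530 and 0 in DCHP (79.7% and 3.61%). Overlapping sequences share a source molecule, so these counts are not independent.

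The calls are given by the start of the sequence as a description. Sequences were tested for their mean level over both methods, so one that is scarce in one method was tested only through its level in the other, and its direction was set by that choice. In control 109 of 110 sequences that start at base 84 were higher and 0 lower, as were 29 of 29 from base 76, 18 of 18 from base 12, 20 of 21 from base 56 and 16 of 19 from base 102. Of 28 sequences from base 103, 1 was higher and 6 were lower. All 7 sequences from base 35 and all 3 from base 104 were lower. In DCHP 105 of 106 from base 84 were higher and 1 lower, 21 of 22 from base 102 were higher, 4 of 25 from base 103 were higher and 2 lower, and all 9 from base 35 and all 3 from base 104 were lower. Without such a choice, base 35 was the start of 0.0152% of PANDORA-seq and 2.30% of traditional Rn5s reads. By class, 149 of 197 3′ sequences were higher and 20 lower in control, as were 168 and 65 of 297 internal sequences and 11 and 9 of 28 5′ sequences, beside the background of 44.3% higher and 43.9% lower. In DCHP 178 of 221 3′ sequences were higher and 22 lower, and 189 and 60 of 287 internal sequences. Of 40 5′ sequences there, 9 were higher, 13 lower and 18 not called (background 47.1% and 42.1%), with a median log2 fold change of 0.39.

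For DCHP against control, 0 Rn5s sequences were called by edgeR on total reads in either method, and 0 of all 20000 sequences. In PANDORA-seq 15 of 711 had an unadjusted p under 0.05 (8 higher, 7 lower). DESeq2 called 0 of the 711, and of all sequences 0.370% higher and 0.0800% lower. With miRNA library sizes edgeR called 0 of the 711 in PANDORA-seq, and of all sequences 0.135% higher and 0.12% lower. In traditional RNA-seq 27 of 363 had an unadjusted edgeR p under 0.05 (9 higher, 18 lower). The share of all sequences under that p was not computed in either method, so these counts have no background and show no effect. DESeq2 called 4 of the 363 in traditional RNA-seq, all lower. Of all sequences DESeq2 called 0.0800% higher and 0.560% lower there, so its calls of any origin were mostly lower too. The 36-nt fragment from base 84 changed by -0.28 ± 0.40 on the log2 scale in PANDORA-seq and by 0.48 ± 0.44 in traditional RNA-seq (SE, edgeR, adjusted p = 0.998 and 0.747). The direction in traditional RNA-seq rested on DCHP replicate 4, without which the change was -0.18 ± 0.26 (edgeR, adjusted p = 0.900). Among the leading internal and 3′ fragments the smallest adjusted p was that of the fragment from base 56 to base 82 in traditional RNA-seq, at -1.20 ± 0.41 (edgeR, adjusted p = 0.656). A missed threshold does not show that the groups were alike.

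Some reads ran past the annotated end. Whether the bases after base 119 are encoded in the gene copies was not tested, since the sequence after the gene was not used here. Of reads that reached base 119, 20.6% (18.4 to 22.9%) carried 1 T after it in PANDORA-seq and 32.8% (26.2 to 41.2%) in traditional RNA-seq, with no overlap between the methods. A pair of T was rare, at 0.0874% and 0.414%. The share varied with the start of the read. It was 17.6% in PANDORA-seq against 26.6% in traditional RNA-seq for reads from base 84, and 17.3% and 33.8% for reads from base 103. For reads from base 102 it was high in both, at 48.5% and 44.5%. Such reads were left out of the levels above. Per 100 reads that end at base 119 they numbered 21.3 to 28.2 in PANDORA-seq libraries and 33.1 to 61.4 in traditional ones. Leaving them out thus raised the 3′ ratios between the methods, by an amount not given here. Adding those that ran 1 to 3 bases past the annotated end changed no call.

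Mismatched reads formed 7.41% ± 0.302 of the Rn5s reads of PANDORA-seq (SD, n = 9) and 13.6% ± 1.65 of those of traditional RNA-seq (SD, n = 10). Only the substitution T62A (reference base, position from base 1, read base) stood above 0.7% of the reads over its base on average in a method. It was seen in 3.94% ± 0.777 and 3.64% ± 0.541 of them, and in 2.56 to 4.97% over the 19 libraries. Of 92 annotated 5S genes of this length 4 carry it. In addition, 5.33% of Rn5s reads in PANDORA-seq against 8.34% in traditional RNA-seq also matched a miRNA hairpin exactly. The hairpins Gm47276, Gm47281, Gm47285 and Gm47301 share 54 to 58 bases with the middle of Rn5s, so these reads cannot be assigned to 1 of them. Without such reads no called difference between the methods was lost.

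Among small RNA genes counted by exact match, Rn5s ranked 23 of 695 by its log2 fold change between methods in control (3.10 ± 0.34, edgeR, adjusted p = 3.33e-06) and 24 of 694 in DCHP (2.90 ± 0.28, adjusted p = 3.72e-07). The background was 20.9% and 17.3% of genes called higher, and 49.2% and 53.7% called lower, 70.1% and 71.0% in all. The median of all genes was -0.95 and -1.35 on the log2 scale. TMM factors shifted Rn5s up by 0.64 and 0.99, DESeq2 by 0.52 and 0.84, and miRNA library sizes by 6.74 and 6.60, so it remained higher under each, and other genes shifted by similar but not equal amounts. For DCHP against control it changed by -0.11 ± 0.24 in PANDORA-seq and by 0.09 ± 0.26 in the traditional libraries (edgeR, adjusted p = 0.986 and 0.910), where 0.192% and 0% of genes were called.

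Other rRNAs did not move as 1 group. The 18S rRNA (CT010467.1), the RNA of the small subunit, was higher by 2.66 ± 0.31 and 2.77 ± 0.25 on the log2 scale in control and DCHP (edgeR). The 5.8S rRNA, which pairs with the 28S rRNA in the large subunit, was at -0.74 and -0.55 for the copy n-R5-8s1 and did not pass, while the copy Gm24601 was lower at -3.07 and -2.29. Reads that match both copies were all counted for Gm24601, so these values do not compare the copies. The mitochondrial mt-Rnr2 was lower at -1.74 and -1.55. mt-Rnr1 was at -0.83 in control, short of the 2-fold limit, and lower at -1.03 in DCHP. These directions are per total read: the shift of Rn5s under miRNA library sizes was larger than each of these negative values, and its TMM shift in DCHP (0.99) was close to the size of the mt-Rnr1 value.

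RNA polymerase III makes other short RNAs too, and 7 genes of the list of these were tested. In control 3 were higher: Rn7s1 (signal recognition particle RNA) by 4.04 ± 0.39, Rpph1 (the RNA of RNase P) by 2.94 ± 0.38 and Rn7sk (which holds the elongation factor P-TEFb inactive) by 1.06 ± 0.46 on the log2 scale (edgeR). The same 3 were higher in DCHP, by 3.27, 2.66 and 1.49. Rny1, a Y RNA bound by the Ro protein, was lower at -1.36 and -2.11. Rny3 was at 0.71 and 0.39 and did not pass. Rmrp, the RNA of RNase MRP, was at -0.01 in control and lower at -1.16 in DCHP. Vaultrc5, a vault RNA, was at -0.55 in control and did not pass, and was lower at -1.77 in DCHP. In control 3 of 7 were thus higher and 1 lower (20.9% and 49.2% of all genes), and in DCHP 3 were higher and 3 lower (17.3% and 53.7% of all genes). These directions are per total read. With TMM factors 4 were higher and 0 lower in control (31.1% and 44.0% of all genes) and 4 and 1 in DCHP (31.8% and 42.8%). With DESeq2 the counts were the same (29.2% and 41.7% of all genes in control, 29.7% and 43.5% in DCHP). With miRNA library sizes all 7 were higher in both, as were 72.7% and 71.3% of all genes. Rn7s1, Rpph1 and Rn7sk were higher under each of these. For DCHP against control 0 of 7 were called by edgeR in either method, and 0 had an unadjusted p under 0.05. Rn7s2, Rn7s6 and Rnu6 were not tested.

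The genes whose levels over the 19 libraries were most like Rn5s were found by the root mean square difference of centred log2(RPM + 0.5) among 119 genes with at least 100 reads in every library. The 18S rRNA was closest at 0.372, followed by Gm23711 (snoRNA) at 0.558, Rn7s1 at 0.565, Rnu3a (snoRNA) at 0.572 and Gm24146 at 0.586, against a median of 1.65. All points share method and library depth, and the part of each in this likeness was not tested.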

How the data were processed

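Sperm small RNA libraries of mice were made by PANDORA-seq (4 control, 5 DCHP) or traditional RNA-seq (5 control, 5 DCHP). For each library the authors deposited counts: each distinct sequence of 15 to 45 nt with its number of cleaned reads, without normalization or molecular identifiers. The labels name genome build mm10 for the submitters' processing, and adapter and quality settings are not given in the sources used here. Groups were taken from the titles.

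The following was computed here. Sequences were matched to Rn5s (GENCODE M21) in sense orientation, allowing 1 mismatch. On simulated data 100% of 20000 reads cut from Rn5s were placed where they were cut. Levels are RPM, reads per 1000000 total reads of the file. Means of 2 groups were compared with an exact permutation test, two-sided, over all relabellings, with Benjamini-Hochberg adjustment over 4 levels, 12 class levels, 12 class shares and 4 lengths, called below 0.05. Distinct sequences (the 20000 with the highest mean RPM in a comparison) and small RNA genes (exact matches, each sequence given to 1 gene) were tested with edgeR 4.0.16 in R 4.3.3 on total reads as library size, called at adjusted p below 0.1 and over 2-fold. A sequence that matched several genes was given to 1 of them by biotype, then to Rn5s, then by name. With 200 of 20000 simulated sequences changed 4-fold, edgeR recovered 85% in PANDORA-seq against traditional RNA-seq in control, 93% in DCHP, 88.5% for DCHP against control in PANDORA-seq and 89.5% for the same contrast in traditional RNA-seq. Of its calls 11.0%, 6.53%, 6.84% and 4.28% were false, in that order. All simulated sequences had the same dispersion, so recovery of more variable sequences was not tested. Between the methods 88.2% (control) and 89.1% (DCHP) of the real sequences were called, far more than were changed in the simulation. Recovery and false calls in such a setting were not tested. The alternative tool was DESeq2 1.42.0, with 22.6 to 26.8% false among its calls in this simulation. The fragments named are the 2 internal and the 2 3′ sequences with the highest mean RPM in each method (single 5′ fragments are not reported here), and the positions named are starts and ends that held at least 5% of reads in a method, with others named to describe gaps and counts. Members, lists and tests were chosen with earlier results of these data known.

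Replicate numbers are not explained in the labels. Between the methods, DCHP libraries of the same number deviated together over 20000 sequences (r = 0.180 to 0.365 in 5 of 5 pairs). A paired test is therefore given beside the main one for DCHP. The main exact tests and edgeR fits, which gave the calls, were unpaired there too. In control such a joint deviation held for 3 of 4 pairs (r = -0.0208 for replicate 3), and within a method it did not hold, so those libraries were not taken as paired. The study reports that sperm RNA of both exposure groups went through both methods, without saying which libraries share RNA. The unpaired p-values of both exposure groups ignore any such sharing, and a sign-flip test of 4 or 5 pairs could not have passed. No 2 libraries of a group agreed within sampling noise (36 pairs, chi-square per degree of freedom at least 88.7). Intervals cover counting error only, since PCR copies cannot be told apart.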

Additional observations from a re-analysis of the deposited data

Results flagged for a closer look

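In groups of 4 or 5 libraries, 3 of 32 groups held a library far from the others by Dixon's criterion, which chance alone meets in about 1 group in 20. Traditional DCHP replicate 5 stood at 2930 RPM of 5′ fragments, while the other 4 libraries of its group lay between 511 and 1045 RPM. The same library stood at 5270 RPM of internal fragments, against 2758 to 3355 RPM in the others, and its 5′ fragments formed 18.6% of its Rn5s reads. Among traditional libraries it also had the highest summed hairpins of epididymal epithelium (3914 RPM), male germ cells (403 RPM) and smooth muscle (5789 RPM). For epididymal epithelium traditional DCHP replicate 4 came next at 2897 RPM. The liver, red blood cell and myeloid lists were highest in traditional control replicate 2. PANDORA-seq control replicate 1 stood at 23126 RPM of internal fragments, against 13866 to 14470 RPM in the other 3 libraries, and had the highest Rn5s level of all 19 libraries, 123128 RPM. No cause was tested.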

How the results depend on the processing

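Of 759 values recomputed under alternatives, 658 kept their direction and their side of the threshold (for a count, stayed within 1.5 times), 69 kept the direction and lost the call, 3 gained a call, 26 changed sign and 3 counts moved by more than 1.5 times. The sign changes concern DCHP against control, and 5′ fragments per read of other rRNAs.

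With the replicate block no exact test could pass (smallest sign-flip p = 0.125 for 4 control pairs and 0.0625 for 5 DCHP pairs). The method ratios were then 7.62 (control) and 7.07 (DCHP) for the level, 10.5 and 9.55 for 3′, 4.11 and 4.30 for internal and 2.75 (control) for 5′ fragments. The share differences were 21.1 and 19.8 points for 3′, -16.9 and -12.7 for internal and -4.25 and -7.09 for 5′ fragments, and the lengths differed by 8.00 and 5.98 nt. The block turned the DCHP ratio of 5′ fragments in PANDORA-seq to 0.887, and changed no gene-level call of Rn5s in the edgeR fits. Between methods it called 431 of 522 and 470 of 548 Rn5s sequences, in place of 422 and 471. The share of all 20000 sequences called was 88.4% and 89.9%. For DCHP it called 0 Rn5s sequences. In control, 3 of 4 libraries correlated best with their own number.

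Per miRNA read of 20 to 24 nt, the method ratio of 5′ fragments in DCHP was 197 and passed. The DCHP ratio turned to 0.954 for the level in traditional RNA-seq and to 0.901 for 5′ fragments in PANDORA-seq. Per read of other rRNAs the method ratios of 5′ fragments turned to 0.679 and 0.451, and those of internal fragments (1.03 and 1.02) lost the call. A log2 scale left 5′ fragments in control at 2.57, no longer called. Ends within 3 bases left internal and 3′ shares in control at -7.81 and 13.1 points, no longer called. Without reads that match another small RNA gene, the DCHP differences in PANDORA-seq turned to 0.0731 (internal share) and -0.783 points (3′ share). Rn5s in traditional RNA-seq turned to -0.18, -0.22 and -0.062 on the log2 scale for DCHP under TMM, DESeq2 and miRNA library sizes. Testing 50000 sequences gave 1015 calls of 1326 and 1075 of 1340 between methods (86.3% and 88.2% of all 50000) in place of 422 and 471, as more were tested, and DESeq2 gave 4 for DCHP in traditional RNA-seq in place of 0. Beyond these constructions the cause was not tested.

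Leaving out 1 library in turn kept every call between the methods in DCHP sperm; the 5′ ratio, which was not called, ran from 1.61 to 3.09. In control the direction held, and between 4 and 8 of 9 omissions lost a call, with fewer libraries: the level ratio ranged over 6.67 to 9.005, 3′ fragments 9.53 to 13.2, internal 3.50 to 4.27, 5′ 2.08 to 3.16, the 3′ share 20.1 to 24.7, internal share -20.0 to -15.9 and 5′ share -5.44 to -4.03 points, and length 6.67 to 7.995 nt. For DCHP in PANDORA-seq the ranges were 0.822 to 1.11 for the level, 0.797 to 1.102 for 3′, 0.881 to 1.08 for internal and 0.981 to 1.62 for 5′ fragments, -2.20 to 2.39 points for the 3′ and -2.64 to 1.42 for the internal share, -0.202 to 0.476 nt for length and -0.29 to 0.14 on the log2 scale for the gene. For DCHP in traditional RNA-seq they were 0.944 to 1.11 for the level, -0.071 to 0.16 for the gene, -7.09 to -4.32 points for the internal share and 0.606 to 2.29 nt for length. The log2 DCHP effect of PANDORA-seq less that of traditional RNA-seq ran from -0.36 to 0.070. PANDORA-seq control replicate 1 turned the level, 3′ and internal ratios, the gene and that difference, and PANDORA-seq DCHP replicate 2 the 5′ ratio. PANDORA-seq control replicate 3 turned the internal share and, like DCHP replicate 2, the length. PANDORA-seq DCHP replicate 3 turned the internal share. Control replicates 3 and 4 and DCHP replicates 3 and 4 of PANDORA-seq each turned the 3′ share, and traditional DCHP replicate 5 the level and the gene in traditional RNA-seq. Counting reads that reach into the genomic flanks of Rn5s was intended and not run. Rn5s counts were high, with at least 244364 reads in every library, and the part of depth in the results was not tested.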
